A study of Mus musculus with 18 samples.

Results

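The genes described here were the G1 cyclins and inhibitors of cyclin-dependent kinases (CDKs): the D-type cyclin genes Ccnd1, Ccnd2 and Ccnd3, the E-type cyclin genes Ccne1 and Ccne2, the INK4 inhibitor genes Cdkn2a, Cdkn2b and Cdkn2c, and Cdkn1b, which encodes p27. They were chosen by name, 9 of the 19938 genes that had at least 1 probe of their symbol alone, and each was read from its brightest such probe. The 18 samples, each hybridised to 1 Mouse Gene 1.0 ST array (Affymetrix), fell into 12 groups, 6 of them with 2 arrays and 6 with 1 array. Mouse embryonic fibroblasts (MEFs) with ROSA-rtTA and Nanog-GFP received piggyBac transposons whose doxycycline-responsive cassette (OKMS or OK+9MS) carries Oct4, Klf4, c-Myc and Sox2 together with an mCherry reporter. The OKMS cassette, with the short Klf4, is called low-KLF4, and the OK+9MS cassette, with the long Klf4, is called high-KLF4. mCherry+ cells were sorted after 2, 4, 8 and 18 days in ES cell medium with 1 µg/mL doxycycline, with 2 arrays of each cassette on day 8 and 1 on each other day. By the study's protocol, cultures were passaged on day 8 for analysis on day 18. Time and that passage cannot be told apart between day 18 and the earlier days. The low-KLF4 iPSC group held the clones A7 and A9, and the high-KLF4 iPSC group the clones A10 and H10, with 1 array a clone. The mESC group was 2 arrays of the line 1A2, and primary keratinocytes, isolated from pups on postnatal day 2 and grown in keratinocyte medium, gave 2 arrays. The study describes the day 8, mESC and keratinocyte pairs as independent experiments. Untreated MEFs were not analysed here, so the course began 2 days after doxycycline was added.

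D-type cyclins bind CDK4 and CDK6, and E-type cyclins bind CDK2. Together these kinases phosphorylate the retinoblastoma protein, release E2F factors and carry a somatic cell from G1 into S phase. INK4 proteins bind CDK4 and CDK6 and block their pairing with D-type cyclins, whereas p27, of the CIP/KIP family, restrains CDK2 complexes. Mouse embryonic stem cells are known for a short G1 phase, high CDK2 activity with cyclin E, and little INK4 protein, and the Cdkn2a and Cdkn2b locus is known as a barrier to reprogramming of fibroblasts.

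By the RefSeq annotation of GRCm38.p6, Ccnd1 lies on chr7:144929931-144939831, Ccnd2 on chr6:127125162-127152188 and Ccnd3 on chr17:47505051-47599689. Ccne1 lies on chr7:38097984-38107490 and Ccne2 on chr4:11190433-11204779. Chromosome 4 also holds the INK4 genes: Cdkn2a at chr4:89274473-89294619, its neighbour Cdkn2b at chr4:89306289-89311032, and Cdkn2c at chr4:109660876-109666756. Cdkn1b lies on chr6:134920401-134925525. Cdkn2a has separate start sites for p19Arf and p16Ink4a but only 1 probe of its symbol alone. Which of their transcripts that probe reads was not examined, so a Cdkn2a level is given for the locus only. The 250 bases upstream of both Cdkn2a starts and of the Ccne1 start (RefSeq, GRCm38.p6, gene strand, 5′ to 3′) are shown. Cdkn2a was chosen for its separate starts under 1 probe, and Ccne1 for the widest range of the 9 genes. Capitals mark an E2F-like octamer (TTTCCCGC, TTTGCCGC, TTTCGCGC or TTTGGCGC, searched on both strands). The octamers differ only in the bases between TTT and CGC, so no 2 of them match at the same place.
Cdkn2a, p19Arf start, chr4:89294620-89294869, minus strand: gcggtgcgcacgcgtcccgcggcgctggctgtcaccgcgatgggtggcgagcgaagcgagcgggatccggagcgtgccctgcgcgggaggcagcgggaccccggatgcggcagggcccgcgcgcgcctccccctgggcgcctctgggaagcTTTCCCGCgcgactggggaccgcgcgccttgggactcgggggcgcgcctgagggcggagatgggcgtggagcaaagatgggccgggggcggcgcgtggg
Cdkn2a, p16Ink4a start, chr4:89282193-89282442, minus strand: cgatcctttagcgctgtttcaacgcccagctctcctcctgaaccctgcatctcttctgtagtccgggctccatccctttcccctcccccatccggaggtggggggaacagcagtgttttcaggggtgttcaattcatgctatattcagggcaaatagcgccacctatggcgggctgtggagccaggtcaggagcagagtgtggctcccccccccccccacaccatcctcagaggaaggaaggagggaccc
Ccne1, chr7:38107491-38107740, minus strand: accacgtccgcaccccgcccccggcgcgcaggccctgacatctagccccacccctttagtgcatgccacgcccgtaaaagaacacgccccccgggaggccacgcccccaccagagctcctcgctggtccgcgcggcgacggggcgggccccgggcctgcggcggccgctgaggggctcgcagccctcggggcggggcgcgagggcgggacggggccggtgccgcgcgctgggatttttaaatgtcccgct
Among 9 such windows of 6 members, 1 held an octamer, TTTCCCGC, with its first base 99 bases before the p19Arf start. Of 32851 windows of this length over all annotated starts, 611 (1.86%) held at least 1. A match is only a run of letters, and windows without one may hold other forms of the motif.

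Marker genes were read first. Pluripotency markers (7 genes) summed to a signal of 32525 to 37485 on the 6 iPSC and mESC arrays and to 521 and 522 on the keratinocyte arrays. The 6 measured keratinocyte markers summed to 37129 and 36729 in keratinocytes and to 671 to 787 on the pluripotent arrays. These summed levels fit the labels of both groups. Of the single markers, Zfp42 was read at 174 to 370 in the 4 clones against 2386 and 2237 in mESCs. The 7 measured fibroblast markers, among them Col1a1 and Postn, summed to 31044 and 27102 on the first day 8 arrays (low-KLF4 and high-KLF4) and to 6623 and 6880 on the second ones. All 7 markers were lower on the second array with both cassettes. They summed to 5020 to 6558 in the clones, 3516 and 3960 in mESCs, and 1031 and 1170 in keratinocytes. Their part in the values of pluripotent cells was not tested. In these bulk samples, fewer fibroblast-like cells and less of these RNAs per cell cannot be told apart, and values of day 8 against the clones without each pair of arrays are given below for Ccnd2, Cdkn2b and Cdkn2c, which were lower on the second array with both cassettes. On the keratinocyte arrays 4 melanocyte markers summed to 4514 and 3254, against 277 to 461 on all other arrays, and their part in the keratinocyte values was not tested.

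**Figure D1:**
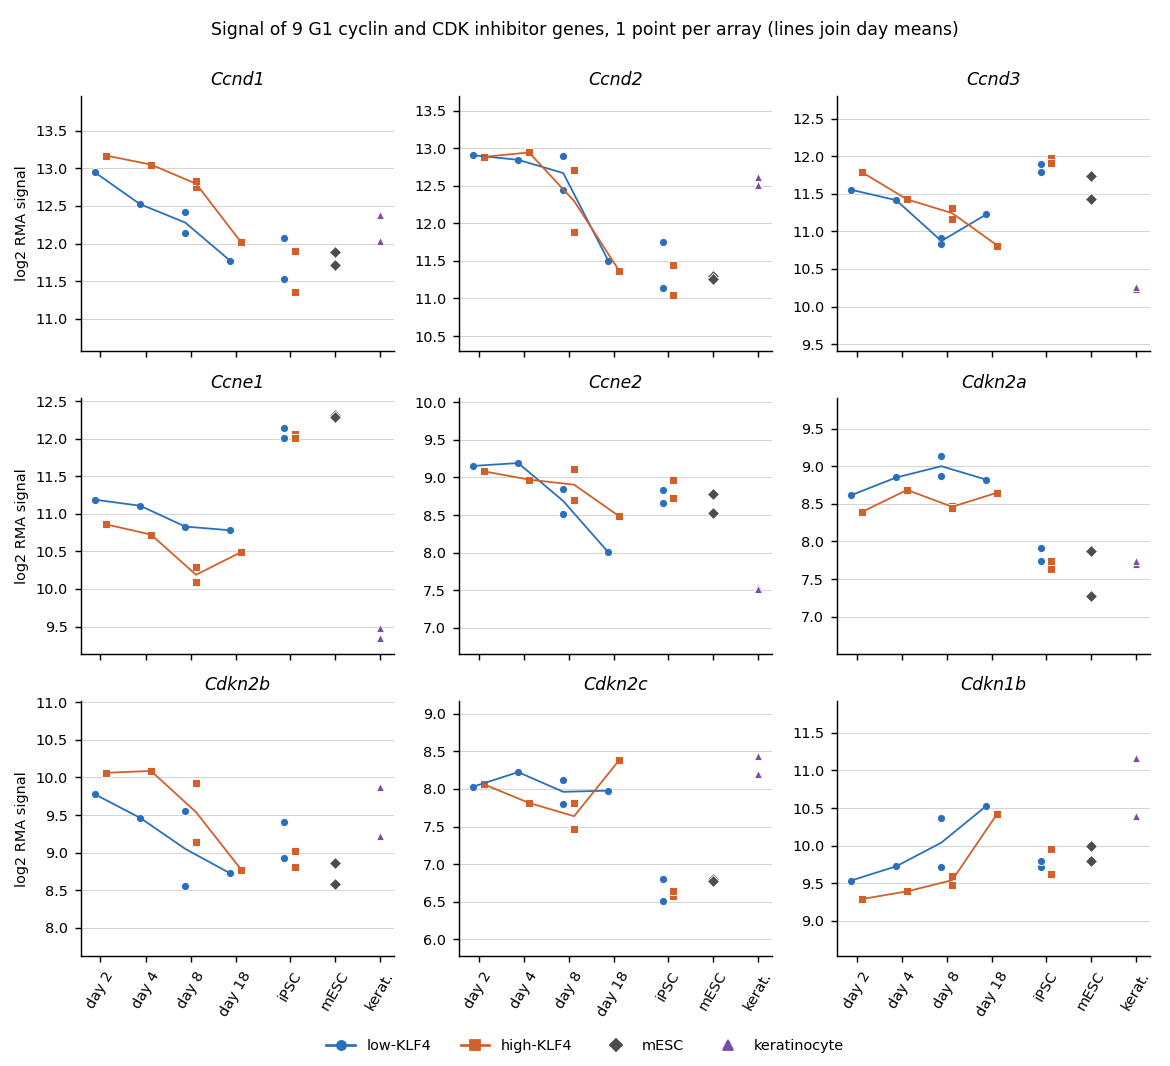
log2 RMA signal (vertical axis, of the same span in each panel) of the 9 genes by group, with 1 point per array, the mCherry+ days joined by lines through the day means. Ccne1 is highest on the 6 pluripotent arrays and lowest in keratinocytes, and Cdkn2a and Cdkn2c are higher on all 10 mCherry+ arrays than on any pluripotent array.

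Each gene varied over the 12 groups, by 2.57-fold for Cdkn2b up to 7.38-fold for Ccne1, taken as highest over lowest group mean of log2 signal. The widest change was in Ccne1, and the pattern was not that of whole families. Ccnd1 and Ccnd2 were high in mCherry+ cells of days 2 to 8 and low in pluripotent cells, whereas Ccnd3 was highest in iPSC clones. Within the INK4 genes, Cdkn2c was high in mCherry+ cells and keratinocytes, and Cdkn2a was high in mCherry+ cells alone among the groups, with no overlap between those 10 arrays (336 to 563) and the other 8 (154 to 240). The order of group means was more separated for Ccne1 and Ccnd3 than for the other genes. Of the 11 gaps between neighbouring groups, 6 and 5 exceeded the SD of the fit, against 0 for Cdkn2b and 1 or 2 for the rest. The full order was resolved for no gene.

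Differences between groups were tested with limma on log2 signal over 23410 probes, and a gene was called at a Benjamini-Hochberg adjusted p under 0.05. Between keratinocytes and mESCs, 3 of the 9 genes were higher (Ccnd2, Cdkn2c and Cdkn1b) and 3 lower (Ccnd3, Ccne1 and Ccne2), where 17.7% of all probes were called higher and 20.4% lower. On day 8 against the clones of the same cassette, the low-KLF4 cells had 3 genes higher (Ccnd2, Cdkn2a and Cdkn2c) and 2 lower (Ccnd3 and Ccne1), against 8.43% and 10.8% of all probes. The high-KLF4 cells had the same 5 genes called in the same directions and Ccnd1 higher as well, making 4 higher and 2 lower, against 13.5% and 14.7% of all probes. The median difference of the 9 genes was 0.41, 0.28 and 0.62 on the log2 scale in these comparisons, and that of all probes was 0.00, 0.06 and 0.04.

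**Figure D2:**
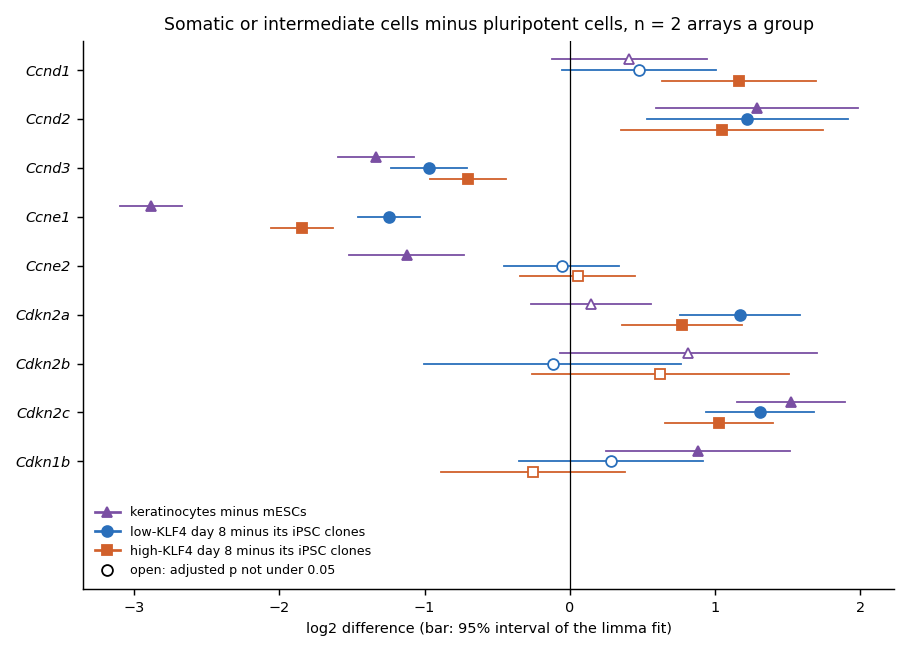
log2 difference (horizontal axis) with its 95% interval from limma for each gene in keratinocytes minus mESCs and in day 8 cells minus iPSC clones of the same cassette, with 2 arrays a group. Filled points passed the adjusted p of 0.05. Ccne1 and Ccnd3 lie to the left of 0 and Ccnd2 and Cdkn2c to the right in all 3 comparisons.

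Ccne1, the cyclin that activates CDK2 at the G1/S transition, was read at 5116 and 4981 on the mESC arrays. The clones gave 4530 (A7), 4110 (A9), 4276 (A10) and 4116 (H10). Keratinocytes gave 654 and 715. All pluripotent arrays therefore lay above all others, and the mCherry+ cells lay between. Low-KLF4 cells had 2332 after 2 days, 2207 after 4, 1826 and 1815 after 8, and 1760 after 18 days. High-KLF4 cells had 1860, 1691, 1091 and 1249, and 1439 at the same times. At every time point the high-KLF4 value was the lower. Ccne1 was 7.38-fold lower in keratinocytes than in mESCs (log2 difference -2.88, SE 0.09, adjusted p = 2.25e-07). On day 8 it was 2.37-fold lower than in the clones with low-KLF4 (-1.24, SE 0.09, adjusted p = 8.99e-05) and 3.59-fold lower with high-KLF4 (-1.85, SE 0.09, adjusted p = 7.42e-06). These 3 calls held in every alternative fit that was run.

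Between the cassettes on day 8, Ccne1 was the only 1 of the 9 genes called, lower in high-KLF4 cells (log2 difference -0.64, SE 0.09, 1.56-fold, adjusted p = 0.00872), where 2.71% of all probes were higher and 1.29% lower. When only the 4 day 8 arrays were fitted, 0 of the 23410 probes were called in either direction, Ccne1 included (adjusted p = 0.493 at the same difference). The sum of the 6 keratinocyte markers differed between the same arrays, at 8837 and 13225 with high-KLF4 against 2131 and 3181 with low-KLF4. Krt14 alone gave 3780 and 5459 against 315 and 251, and the median of the 6 was 300 and 633 against 167 and 164. Their sum was also higher in high-KLF4 cells on each other day, and the part of these markers in the Ccne1 difference was not tested. Whether the distance from day 8 to the clones differed between cassettes was tested directly: for Ccne1 the difference was -0.60 (SE 0.13, adjusted p = 0.104). None of the 9 genes was called there by limma (0 also with limma-trend), and 0.671% and 0.154% of all probes were called higher and lower. By the unadjusted p, 1 of the 9 genes was under 0.05, as were 2419 of the 23410 probes. With a second quantile normalization, or with the number of the day 8 arrays as a block, the adjusted p of Ccne1 was 0.0439 and 0.0371. Over the whole course, in a fit of day and cassette on the 10 mCherry+ arrays, the high-KLF4 minus low-KLF4 difference of Ccne1 was -0.46 (SE 0.08, adjusted p = 0.0922), which missed the threshold. By day that difference, high-KLF4 minus low-KLF4, was -0.33, -0.38, -0.64 and -0.29. No member was called by limma (0 also with limma-trend) in the course comparison of cassettes, and 0.158% of all probes were called higher and 0.00427% lower. By the unadjusted p, 4 members were under 0.05, as were 3718 of the 23410 probes.

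Ccne2, the paralog of Ccne1, followed another order. It gave 186 and 183 in keratinocytes, 439 and 368 in mESCs, and 403 to 501 in the 4 clones. The low-KLF4 course ran 570, 585, 462 and 367 (both day 8 arrays) and 256, and the high-KLF4 course 542, 502, 416 and 552, and 358. On days 2 and 4 its signals, 502 to 585, lay level with or above the highest pluripotent array (501), whereas those of Ccne1 lay below every pluripotent array. The high-KLF4 day 4 array (502) was level with that highest one, and these days were not tested against pluripotent cells. Ccne2 was 2.18-fold lower in keratinocytes than in mESCs (log2 difference -1.13, SE 0.17, adjusted p = 0.00104). Day 8 cells differed from the clones by -0.06 with low-KLF4 (95% interval -0.46 to 0.34) and by 0.05 with high-KLF4 (-0.34 to 0.45), so neither direction was resolved.

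Among the D-type cyclins, Ccnd1 is a main target of mitogen signals. Its signal fell along the course, from 7891 (day 2) through 5886, 5477 and 4511 to 3490 (day 18) in low-KLF4 cells. In high-KLF4 cells it ran 9226, 8488, 6928 and 7304, and 4143. The clones gave 4315, 2962, 3829 and 2628, mESCs 3798 and 3351, and keratinocytes 4208 and 5334. The day 18 arrays were inside the pluripotent range, and those of days 2 to 8 were above it. Day 8 cells exceeded the clones 2.24-fold with high-KLF4 (log2 difference 1.16, SE 0.23, adjusted p = 0.0067), a call that was lost without the clone H10 (adjusted p = 0.0537). With low-KLF4 the difference was 0.48 (95% interval -0.06 to 1.01, adjusted p = 0.189). Keratinocytes and mESCs differed by 0.41 (SE 0.23, adjusted p = 0.221). High-KLF4 values were above low-KLF4 ones on each of the 4 days, by 0.23, 0.53, 0.52 and 0.25 on the log2 scale, and the cassette term of the course was 0.41 (SE 0.08, adjusted p = 0.113).

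By group means, Ccnd2 fell most between day 8 and day 18 with both cassettes, a step that was not tested. On the second high-KLF4 day 8 array much of the fall had already come. Low-KLF4 cells gave 7674 and 7356 on days 2 and 4, 7586 and 5585 on day 8, and 2895 on day 18. High-KLF4 cells gave 7556, 7875, 6701 and 3775, and 2641 at the same times. The second day 8 array was the lower with both cassettes (second minus first -0.44 and -0.83 on the log2 scale), as it was for the fibroblast markers. The 6 pluripotent arrays lay at 2119 to 3462 with a median of 2478, and keratinocytes at 5823 and 6291. Ccnd2 was 2.44-fold higher in keratinocytes than in mESCs (log2 difference 1.29, SE 0.30, adjusted p = 0.0094), and the adjusted p was 0.0519 without the second keratinocyte array. Day 8 exceeded the clones by 1.22 with low-KLF4 (SE 0.30, adjusted p = 0.0252) and by 1.05 with high-KLF4 (SE 0.30, adjusted p = 0.0327). Neither call held when only the compared arrays were fitted (adjusted p = 0.0938 and 0.116). Leaving out the first low-KLF4 day 8 array (adjusted p = 0.108) or the clone A9 (0.177) ended the first call. Leaving out the first high-KLF4 day 8 array (adjusted p = 0.156), the clone A10 (0.0638) or H10 (0.189) ended the second.

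Ccnd3, the D-type cyclin best known from lymphoid cells, ran the other way. Keratinocytes had the lowest signals, 1204 and 1227. The clones had 3542, 3822, 4026 and 3847, and mESCs 3429 and 2751. Low-KLF4 cells gave 3007, 2731, 1933 and 1818, and 2398, and high-KLF4 cells 3535, 2751, 2301 and 2554, and 1798. Days 2 and 4 overlapped the mESC arrays, and days 8 and 18 lay below every pluripotent array. Ccnd3 was 2.53-fold lower in keratinocytes than in mESCs (log2 difference -1.34, SE 0.11, adjusted p = 3.9e-05). On day 8 it was lower than in the clones with low-KLF4 (-0.97, SE 0.11, adjusted p = 0.000834) and with high-KLF4 (-0.70, SE 0.11, adjusted p = 0.00253). These Ccnd3 calls held in every alternative fit that was run.

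Cdkn2a, the locus of p16Ink4a and p19Arf, gave 392, 462, 466 and 563, and 453 along the low-KLF4 course. The high-KLF4 course gave 336, 412, 356 and 349, and 402. The clones gave 240, 215, 199 and 213, and mESCs 154 and 234. Keratinocytes, at 208 and 213, lay within the pluripotent range. Day 8 exceeded the clones 2.26-fold with low-KLF4 (log2 difference 1.17, SE 0.18, adjusted p = 0.0032) and 1.71-fold with high-KLF4 (0.77, SE 0.18, adjusted p = 0.0134). The second of these calls was lost without the clone A10 (adjusted p = 0.0786) or H10 (0.0573). Keratinocytes minus mESCs gave 0.15 (95% interval -0.27 to 0.56), which turned to -0.15 without the first mESC array and to 0.45, with an adjusted p of 0.0422, without the second. On each day the low-KLF4 value was above the high-KLF4 one, and high-KLF4 minus low-KLF4 lay between -0.54 and -0.17 on the log2 scale, with an adjusted p of 0.165 on day 8.

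Cdkn2b encodes p15, an INK4 protein known to be induced by TGF-beta. Its signal was 876, 705, 748 and 375, and 422 along the low-KLF4 course and 1069, 1087, 975 and 567, and 438 along the high-KLF4 course. The clones gave 680, 486, 519 and 448, mESCs 384 and 465, and keratinocytes 935 and 594. It was high on days 2 and 4 and within the pluripotent range on day 18. The day 8 arrays split, second minus first being -0.996 and -0.782 on the log2 scale, the widest such gap of the 9 genes with low-KLF4. Cdkn2b was called in none of the 9 comparisons. With high-KLF4, day 8 minus clones was 0.62 (95% interval -0.26 to 1.51). It was 1.01 without both second day 8 arrays and 0.23 without both first ones. With the array number as a block it was 1.07 (adjusted p = 0.00928). That block sets the day 8 level at the first arrays, so it is another comparison than the main one. With low-KLF4, day 8 minus clones was -0.12 in the main fit, with 0.38 and -0.62 without the second and the first arrays.

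Cdkn2c encodes p18, an INK4 protein. Its signals were low on all 6 pluripotent arrays, at 90.9 to 112 with a median of 105. The mCherry+ arrays lay at 177 to 334 with a median of 257, and keratinocytes at 347 and 294. No mCherry+ or keratinocyte array overlapped the pluripotent ones. By day, low-KLF4 cells gave 261, 299, 279 and 223, and 252, and high-KLF4 cells 267, 225, 224 and 177, and 334. Cdkn2c was 2.88-fold higher in keratinocytes than in mESCs (log2 difference 1.53, SE 0.16, adjusted p = 0.000133). Day 8 exceeded the clones by 1.31 with low-KLF4 (SE 0.16, adjusted p = 0.00113) and by 1.03 with high-KLF4 (SE 0.16, adjusted p = 0.0022). The Cdkn2c calls held in every alternative fit that was run.

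Cdkn1b, the gene of p27, was highest in keratinocytes and on day 18. Low-KLF4 cells gave 742, 846, 840 and 1319, and 1477, and high-KLF4 cells 625, 671, 713 and 776, and 1374. The 6 pluripotent arrays lay at 790 to 1020 with a median of 888, and keratinocytes at 2292 and 1344. Both day 18 arrays and both keratinocyte arrays were above every pluripotent array. The difference between keratinocytes and mESCs was 0.88 (SE 0.28, 1.85-fold, adjusted p = 0.034), a call that was lost without the first keratinocyte array (0.50, adjusted p = 0.228) or without the first or second mESC array (adjusted p = 0.0817 and 0.153). Day 8 differed from the clones by 0.28 with low-KLF4 (95% interval -0.35 to 0.92) and by -0.25 with high-KLF4 (-0.89 to 0.38). A dimmer second probe of the gene gave 366 and 204 in keratinocytes and 127 and 165 on day 18, against 72.6 to 107 on all other arrays, so the keratinocyte and day 18 arrays were the highest on both probes.

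Over the course itself, from day 2 to day 18 in the fit of day and cassette, 3 of the 9 genes fell and 1 rose, where 8.56% of all probes fell and 5.45% rose. In log2 units, Ccnd1 fell by 1.17 (SE 0.13, adjusted p = 0.00309), Ccnd2 fell by 1.46 (SE 0.28, adjusted p = 0.018) and Ccne2 fell by 0.87 (SE 0.21, adjusted p = 0.0388). Cdkn1b rose by 1.06 (SE 0.21, adjusted p = 0.0196). There was 1 array per cassette on each of these days, and both cassettes moved the same way for all 4 genes. Only the Ccnd1 call held when any single array was left out. The calls of Ccnd2 and Cdkn1b were lost without any of the 4 arrays of days 2 and 18 (adjusted p = 0.0812 to 0.128 and 0.0617 to 0.137). That of Ccne2 was lost without any of 8 of the 10 arrays (adjusted p = 0.0516 to 0.225). Cdkn2b differed by -1.17 (SE 0.36, adjusted p = 0.0814), which missed the threshold. Its adjusted p was 0.00279 without both second day 8 arrays and 0.00813 without both first ones. The difference was the same in these fits, as the day 8 arrays enter only the estimate of the spread. Ccnd3 differed by -0.65 (SE 0.19, adjusted p = 0.0726), with -0.98 (adjusted p = 0.0269) without the low-KLF4 day 18 array and -0.32 (adjusted p = 0.315) without the high-KLF4 one. Cdkn2a and Cdkn2c changed by 0.23 (95% interval -0.11 to 0.57) and 0.13 (-0.41 to 0.68), and Ccne1 by -0.39 (SE 0.13, adjusted p = 0.0932).

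At the end of the course the mCherry+ cells were set against the clones, a comparison added after the values were seen. On day 18, Cdkn2a (log2 difference 0.98, SE 0.16, adjusted p = 0.00236) and Cdkn2c (1.55, SE 0.14, adjusted p = 0.000174) were higher than in the 4 clones, and Ccne1 (-1.42, SE 0.08, adjusted p = 1.89e-05), Ccnd3 (-0.87, SE 0.10, adjusted p = 0.000459) and Ccne2 (-0.55, SE 0.15, adjusted p = 0.0248) were lower. These were 2 genes higher and 3 lower of the 9, against 13.3% and 17.1% of all probes. Cdkn1b, at 0.70 (SE 0.24, adjusted p = 0.057), missed the threshold and passed it under 5 alternatives, among them limma-trend (adjusted p = 0.048) and the mean of its probes (0.0324). The Ccne2 call was lost without the clone A7 (adjusted p = 0.0681) or H10 (0.0732). Ccnd1 and Ccnd2 differed by 0.18 (95% interval -0.29 to 0.64) and 0.09 (-0.51 to 0.69), with day 18 signals inside the range of the clones. On the same arrays the pluripotency markers summed to 22749 (low-KLF4) and 14919 (high-KLF4), between the day 8 cells (3270 to 4935) and the clones, and the fibroblast markers to 15762 and 14360, against 5020 to 6558 in the clones. The part of the cell mixture in these differences was not tested.

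Between the 4 clones and mESCs no member was called by limma (0 also with limma-trend), where 2.02% of all probes were called higher and 2.28% lower in the clones. By the unadjusted p of limma, 2 members were under 0.05, as were 4231 of all 23410 probes. Those 2 were Ccne1 at -0.25 (95% interval -0.43 to -0.06, adjusted p = 0.15) and Ccnd3 at 0.31 (0.08 to 0.53, adjusted p = 0.138). The intervals of the other 7 genes all held 0, the widest being that of Cdkn2b (-0.45 to 1.08).

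**Figure D3:**
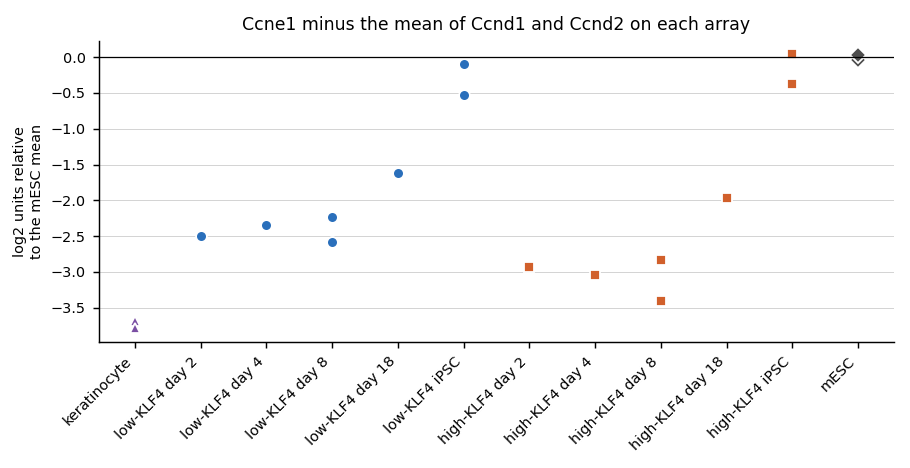
log2 signal of Ccne1 minus the mean log2 signal of Ccnd1 and Ccnd2 on each array (vertical axis), set to 0 at the mESC mean, with 1 point per array in each of the 12 groups (horizontal axis). Pluripotent arrays lie between -0.53 and 0.04, mCherry+ arrays of days 2 to 8 between -3.41 and -2.23, and keratinocytes at -3.68 and -3.78.

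The balance of Ccne1 against Ccnd1 and Ccnd2 on each array was taken as a description, since it combines genes already described. Relative to the mESC mean it was -0.53 and -0.09 in A7 and A9, and -0.38 and 0.04 in A10 and H10. Low-KLF4 cells stood at -2.50, -2.34, -2.58 and -2.23 to day 8 and at -1.62 on day 18. High-KLF4 cells stood at -2.93, -3.04, -3.41 and -2.84 to day 8 and at -1.96 on day 18. The balance of day 18 thus lay between the earlier days and the clones with both cassettes. From day 2 to day 18 it was the fall of Ccnd1 and Ccnd2 that moved it, since Ccne1 itself was lower on day 18 than on day 2 with both cassettes.

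**Figure D4:**
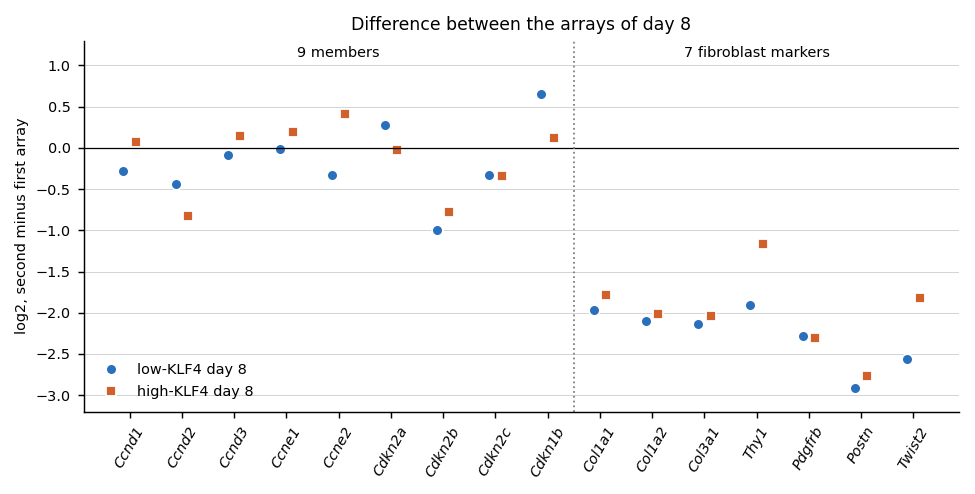
log2 signal of the second minus the first day 8 array (vertical axis) for the 9 genes and 7 fibroblast markers, with 1 point per cassette. The fibroblast markers lie between -2.91 and -1.17, and among the 9 genes Cdkn2b and Ccnd2 lie lowest on average.

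The day 8 pairs differed more than others did: over all probes the SD of second minus first array was 0.49 (low-KLF4) and 0.46 (high-KLF4), against 0.15 to 0.23 in the other 4 pairs. The deviations of the 2 cassettes correlated across probes (Pearson r = 0.74, probes not being independent replicates). The clone arrays carry no such number: A7 and A9, and A10 and H10, are different clones, paired here in their order of listing. With the low-KLF4 day 8 deviation, A9 minus A7 gave r = 0.32 and H10 minus A10 r = 0.22. All 7 fibroblast markers were lower in A9 than in A7 and in H10 than in A10 (medians -0.40 and -0.19). The signs of these clone values depend on that order, so they do not show an effect shared with day 8. Ccne1 moved little in the day 8 pairs, by -0.01 and 0.20, and Ccnd3 by -0.09 and 0.15. Ccnd2, Cdkn2b and Cdkn2c were lower on the second array with both cassettes, Cdkn2c by -0.33 and -0.34. Cdkn1b was higher by 0.65 and 0.12 on its brighter probe. Its dimmer probe was lower on the second array, at 107 then 91.1 with low-KLF4 and 84.6 then 72.6 with high-KLF4. Without both first day 8 arrays, those with the higher fibroblast signal, Ccnd2 in high-KLF4 cells exceeded the clones by 0.63. Without both second ones it did so by 1.46. In low-KLF4 cells these differences were 1.00 and 1.44. For Cdkn2c they were 1.14 and 1.47 with low-KLF4 and 0.86 and 1.20 with high-KLF4. These fits leave 1 array in each day 8 group and take both day 8 pairs, the widest ones, out of the estimate of the spread. Whether a call held in them is therefore no check of that call.

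Other genes of the G1/S machinery, 38 in 5 lists by function, were read in the same fits. Of the other CDK and inhibitor genes, 5 of 6 had a probe of their own. Cdk6, a partner of D-type cyclins, was higher in keratinocytes than in mESCs (log2 difference 0.90, SE 0.21, adjusted p = 0.00956) and on day 8 than in the clones (1.25 with low-KLF4 and 1.14 with high-KLF4). Cdk2, the partner of cyclin E, was lower in all 3 comparisons (-1.31, -0.71 and -0.81). Cdk4 was lower in keratinocytes (-0.64) and in high-KLF4 day 8 cells (-0.40). No other gene of that list was called in these comparisons. The counts of this list and of those that follow are to be read against the shares of all probes called higher and lower: 17.7% and 20.4% for keratinocytes, 8.43% and 10.8% for low-KLF4 and 13.5% and 14.7% for high-KLF4 day 8.

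Of 13 pocket protein, E2F and DP genes, 9 were lower and 1 higher in keratinocytes than in mESCs, with a list median of -0.80 against 0.00 for all probes. The largest falls were in the repressor E2f8 (-2.92, SE 0.38) and in E2f5 (-2.13, SE 0.25), and Rbl2, the gene of p130, was higher (1.12, SE 0.18). On day 8, 4 were lower and 1 higher with low-KLF4 (E2f5 -1.75, E2f8 -1.64, Rb1 1.25) and 6 were lower with high-KLF4 (Tfdp2 -1.90, E2f8 -1.83). The list medians were -0.21 and -0.61.

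Of 8 genes for cyclin and p27 turnover or CDK2 activation, 4 were lower in keratinocytes, led by Skp2 (-2.64, SE 0.17), whose product targets p27 for degradation, and the phosphatase gene Cdc25a (-2.11, SE 0.17). With low-KLF4 on day 8, Cdc25a was lower (-0.76) and Fbxw7, whose product targets cyclin E, higher (0.70), and with high-KLF4 3 were lower and none higher (Cks1b -0.68, Skp2 -0.62). Among A- and B-type cyclins, 3 of 4 were measured. Ccnb2 (-2.07, SE 0.28) and Ccna2 (-2.05, SE 0.27) were lower in keratinocytes, and only Ccnb2 was lower on day 8, with high-KLF4 (-1.28).

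The last list held 7 Polycomb and demethylase genes known to act at the Cdkn2a and Cdkn2b locus. Cbx7, a Polycomb reader, was lower than in pluripotent cells in keratinocytes (-2.01, SE 0.36) and on day 8 (-2.42 with low-KLF4 and -3.13 with high-KLF4). Bmi1 was higher in the same comparisons (1.04, 1.28 and 1.18), as was Ring1 (1.05, 0.48 and 0.43). Ezh2 was lower in keratinocytes (-1.63, SE 0.18). In all, 3 were higher and 3 lower in keratinocytes, 2 and 1 with low-KLF4 on day 8, and 2 and 4 with high-KLF4.

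Across the 12 group means, which share arrays of 1 normalization, Ccnd1 varied with Ccnd2 (Pearson r = 0.88) and Cdkn2b (r = 0.91). Ccnd2 varied with Cdkn2b (r = 0.85), and Ccnd3 with Ccne1 (r = 0.81). Ccne1 ran against Cdkn2c (r = -0.81) and Ccne2 against Cdkn1b (r = -0.91). The other pairs lay between -0.75 and 0.71. Among 8373 other genes whose group means spanned at least 1 log2 unit, those most like Ccne1 were Snapc3 (r = 0.98), Rragb and Lyar (r = 0.98 each). Most like Ccnd1 were Rab32, Mcfd2 (r = 0.99 each) and Ankrd13b (r = 0.98), and most like Ccnd2 were Zfp637 (r = 0.98), St7 and Ifi35 (r = 0.97 each). Ccnd3 was most like Cacna1a, Aldh3b1 and Polr2e (r = 0.98, 0.97 and 0.95), and Ccne2 like Heatr3, Uchl1 and Rab4a (r = 0.97, 0.96 and 0.96). Cdkn2a was closest to the cartilage and matrix gene Col11a1, then to Capn6 and Matn2 (r = 0.97, 0.97 and 0.96). Cdkn2b was closest to Abi1, Cldnd1 and Cdc42ep3 (r = 0.97, 0.97 and 0.96), Cdkn2c to Ednrb, Rnf217 and Phxr4 (r = 0.98, 0.96 and 0.95), and Cdkn1b to Susd4, Stard10 and Gpr1 (r = 0.94 each). With 12 points and 8373 genes, such values describe likeness of pattern and carry no p.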

How the data were processed

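The deposited values were signal intensities of 28853 probes on 18 GeneChip Mouse Gene 1.0 ST arrays, summarised by the authors with RMA in GeneSpring and given on a linear scale (20.2 to 19539, array medians 139 to 162). They were turned to log2. Of the probes, 23410 had a gene symbol, 21789 of them a single one. Groups came from the sample labels. The members and the lists of other genes were chosen with earlier results of these data known. All 9 members are named. From each list, at most the 2 largest called rises and falls in keratinocytes minus mESCs and in each day 8 comparison are named, and for each member the 3 genes with the highest Pearson r to it.

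limma 3.58.1 (R 4.3.3) fitted 12 group means to all arrays, with 6 residual degrees of freedom, so that every group with 2 arrays fed 1 estimate of the spread. A second fit of day (4 levels) and cassette (2 levels) used the 10 mCherry+ arrays, treating the cassettes as replicates of a day. Tests were two-sided, p-values were adjusted by Benjamini-Hochberg over 23410 probes, and intervals were at 95%. The fits were tested on simulated data. The number of arrays limits the precision, and levels of different probes were not compared. Promoter windows came from RefSeq (GRCm38.p6); Ccnd1, Ccnd2 and Ccne2 had none in the table. The day 6 cells were not analysed here. Tables were made with Python 3.11.15 and pandas 2.3.3.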

Additional observations from a re-analysis of the deposited data

How the results depend on the processing

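Of the 27 calls of a member in a comparison, 16 held under every alternative run for their comparison. These were the dimmest 30% of probes left out, a second quantile normalization, limma-trend, the mean of a gene's probes, the compared arrays fitted alone (not run for the difference between cassettes or the fit of day and cassette), each array left out in turn, and, chosen after the data were seen and run only for comparisons with day 8 arrays, both first or both second day 8 arrays left out. A call that held without both first or both second day 8 arrays is no check of it, as the widest pairs then leave the estimate of the spread. No called value turned its sign. Leaving out a day 18 array was not run for day 18 minus iPSC, where it would leave that cassette without an array. With 1 or 2 arrays a group, a lone array is assumed to vary as the others do, and a missed threshold does not show that levels were equal. Signals have no detection value, so how far dim genes such as Cdkn2c, Cdkn2a and Ccne2 lay above background is unknown.

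The number of members called was 3 to 6 for high-KLF4 day 8 minus its clones when single arrays were left out (3 without the clone H10) and 1 to 5 for day 18 minus day 2. Between the cassettes on day 8 it was 0 in place of 1 with the compared arrays alone and by a 2-fold difference of averages, and 2 in place of 5 by the 2-fold rule for day 18 minus iPSC. It was 1 in place of 0 for the difference between cassettes, with a second quantile normalization and with the replicate block. The replicate block of the day 8 arrays (the cassettes share the numbers, and the day 8 deviations correlate, but 2 pairs do not show that a number marks a shared experiment) gave 1 in place of 0 for the cassette term of the course, Ccne1 with an adjusted p of 0.0452. Over all 23410 probes the block also made more calls: 415 higher and 90 lower in place of 37 and 1 for the cassette term, 676 and 254 in place of 157 and 36 for the difference between cassettes, and 4931 and 4762 in place of 3165 and 3446 for high-KLF4 day 8 minus its clones. It also called Cdkn2b for high-KLF4 day 8 minus its clones (1.07, adjusted p = 0.00928) and for day 18 minus day 2 (-1.17, adjusted p = 0.00246), and changed no other call. When single arrays were left out, the calls over all probes moved as well. Without the clone H10, fewer probes were called in both directions for high-KLF4 day 8 minus its clones. For day 18 minus day 2, fewer were called without the low-KLF4 day 2 array and more without the second low-KLF4 day 8 array. The change in member counts in these fits therefore does not set the members apart from other probes. The causes were not tested.

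None of the differences that turned sign was called, and as reported they lay between -0.37 and 0.49. When single arrays were left out, keratinocyte minus mESC ran from -0.15 to 0.45 for Cdkn2a. Day 8 minus clones with low-KLF4 ran from -0.22 to 0.11 for Ccne2, from -0.62 to 0.38 for Cdkn2b and from -0.042 to 0.61 for Cdkn1b, and with high-KLF4 from -0.15 to 0.26 for Ccne2. High-KLF4 minus low-KLF4 on day 8 ran from -0.79 to 0.042 for Ccnd2 and from -0.0097 to 0.99 for Cdkn2b. iPSC minus mESC ran from -0.22 to 0.053 for Ccnd1, from -0.085 to 0.23 for Ccnd2 and from -0.11 to 0.49 for Cdkn2a, and was 0.0014 for Cdkn1b by the mean of its probes. The difference between cassettes ran from -0.59 to 0.24 for Ccnd2 and from -0.093 to 0.32 for Ccne2, day 18 minus iPSC from -0.069 to 0.24 for Ccnd2, and day 18 minus day 2 from -0.20 to 0.47 for Cdkn2c. Without both second day 8 arrays, day 8 minus clones was 0.11 for Ccne2, 0.38 for Cdkn2b and -0.042 for Cdkn1b with low-KLF4 and -0.15 for Ccne2 with high-KLF4, the difference between cassettes was 0.019 for Ccnd2 and -0.26 for Ccne2, and high-KLF4 minus low-KLF4 on day 8 was -0.15 for Ccne2. The replicate block, which sets the day 8 level at the first arrays, gave 0.33 for Cdkn2b in low-KLF4 day 8 minus clones. The second quantile normalization gave -0.013 for Ccne2 in high-KLF4 day 8 minus clones.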
